A study of Rattus norvegicus with 8 samples.

Results

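Messenger RNA of 5 genes that mark cycling cells and of 1 inhibitor of the cell cycle was followed in cultured rat cardiac cells. The 6 genes, of 21867 in the table of estimated counts, were picked by name and Ensembl ID, namely Mki67 (ENSRNOG00000028137), Top2a (ENSRNOG00000053047), Cdk1 (ENSRNOG00000000632), Ccnb1 (ENSRNOG00000058539), Pcna (ENSRNOG00000021264) and Cdkn1a (ENSRNOG00000000521). RNA sequencing covered 8 libraries in 4 groups of 2 biological replicates. The first group held cardiac fibroblasts (CFs) of newborn Wistar Kyoto rats, called healthy and used as the starting cells, and the second held myofibroblasts (MFs) that had been made from such CFs by repeated passaging in low serum and served as the untreated baseline. The remaining groups held MFs that received direct current at 1 µA/cm2 or 2 µA/cm2 for 72 h, here called 1 µA and 2 µA. The labels put the treated cells in medium with 10% fetal bovine serum, and the medium of the untreated MFs over those hours is not given in the sources used here, so current and serum cannot be told apart in a comparison of treated cells with MFs. CFs and MFs also differ in passage number and serum together. Each library held between 26473085 and 37903701 estimated counts, and all 6 genes passed the filter on low counts that left 13849 genes to test. The cell types named by the labels were not checked against marker genes, because the tables list Ensembl IDs without gene symbols.

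A dividing cell copies its DNA in S phase, and in mitosis it separates the copies. Pcna encodes the ring that holds DNA polymerases on the template during copying. Top2a encodes topoisomerase II alpha, which untangles the copied chromosomes, and Cdk1 encodes the kinase that drives entry into mitosis together with cyclin B1, the product of Ccnb1. Mki67 encodes the nuclear antigen that pathologists stain to count cycling cells. Cdkn1a encodes an inhibitor of cyclin-dependent kinases that is a well known target of the tumour suppressor p53 and that also binds the Pcna ring. In the heart, fibroblasts multiply after injury and then turn into contractile, matrix-producing myofibroblasts. In RNA from whole cultures, fewer cycling cells and less of these messengers per cell cannot be told apart.

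The promoters of 4 of the genes are printed with their matches to a few motifs. Other starts of a gene were not searched, so the matches depend on the start that was taken. Top2a, Cdk1 and Ccnb1 had the largest differences between MF and CF, and Cdkn1a moved the other way. Each stretch is the 250 bases before the transcription start on the coding strand, 5′ to 3′, from RefSeq on the GRCr8 assembly, which held an entry for all 6 genes. The Top2a stretch is chr10:84473094-84473343 (minus strand), that of Cdk1 is chr20:19265043-19265292 (plus strand), that of Ccnb1 is chr2:33655226-33655475 (minus strand) and that of Cdkn1a is chr20:7150682-7150931 (plus strand). Capitals mark matches on either strand. They show the CCAAT box, whose letters are those of its name, the cell cycle homology region with the letters TTTGAA, a palindromic variant of that region with the letters TTTAAA, an E2F site with the letters TTTCGCGC, and in Cdkn1a a match to the p53 half-site consensus.
Top2a: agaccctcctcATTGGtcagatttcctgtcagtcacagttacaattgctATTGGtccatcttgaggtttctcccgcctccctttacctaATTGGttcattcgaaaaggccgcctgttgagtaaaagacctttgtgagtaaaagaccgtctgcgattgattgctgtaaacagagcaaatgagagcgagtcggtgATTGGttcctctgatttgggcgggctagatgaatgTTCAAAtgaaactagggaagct
Cdk1: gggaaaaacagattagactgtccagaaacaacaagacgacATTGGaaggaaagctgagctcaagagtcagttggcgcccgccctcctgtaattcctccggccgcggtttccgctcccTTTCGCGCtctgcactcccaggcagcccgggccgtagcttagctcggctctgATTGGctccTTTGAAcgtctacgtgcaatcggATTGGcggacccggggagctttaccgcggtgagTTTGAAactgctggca
Ccnb1: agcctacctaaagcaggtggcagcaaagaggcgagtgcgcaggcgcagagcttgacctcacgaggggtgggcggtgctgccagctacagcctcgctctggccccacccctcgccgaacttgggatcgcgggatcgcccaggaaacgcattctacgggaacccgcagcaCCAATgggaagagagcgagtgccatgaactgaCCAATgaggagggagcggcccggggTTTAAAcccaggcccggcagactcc
Cdkn1a: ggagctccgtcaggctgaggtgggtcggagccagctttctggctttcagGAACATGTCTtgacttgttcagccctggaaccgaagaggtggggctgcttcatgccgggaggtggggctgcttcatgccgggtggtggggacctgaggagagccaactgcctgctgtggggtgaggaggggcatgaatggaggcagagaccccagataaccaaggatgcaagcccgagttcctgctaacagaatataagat

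CCAAT boxes, bound by the factor NF-Y, and cell cycle homology regions, bound by the MuvB complexes, are known from promoters of genes that are switched on late in the cell cycle. Top2a held 4 CCAAT boxes, Cdk1 3 and Ccnb1 2, and among the promoters not printed Mki67 held 4 and Pcna 1. The Cdkn1a stretch held 0. Of all 33469 RefSeq promoters of this length, 34% held at least 1 CCAAT box and 9.42% at least 2. The homology region TTTGAA occurred 2 times in Mki67, 2 times in Cdk1 and 1 time in Top2a, against 16.2% of all promoters with at least 1, and TTTAAA occurred 1 time in Ccnb1, against 12.3%. In Mki67, 1 TTTGAA shares its last base with a CCAAT box on the other strand. The E2F letters TTTCGCGC were found in Cdk1 alone among the 6 genes, and in 0.248% of all promoters, whereas TTTGGCGC (0.412% of all) and GGCGGGAA (1.52% of all) were found in none of the 6. The p53 half-site consensus matched 1 time in Cdkn1a, beginning 201 bases before the start, and in 6.64% of all promoters. Both strands were searched, the motifs were chosen after the sequences had been seen, and a match of letters is not evidence that a factor binds there.

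MFs were compared with CFs, from which they differ in passage number and serum together. Transcripts of Top2a, Cdk1, Ccnb1 and Mki67 were between 2.08-fold and 2.59-fold lower in MFs, and those of Cdkn1a were 2.04-fold higher. So 4 of 6 genes were called lower, against 4.02% of all 13849 genes tested, and 1 of 6 was called higher, against 6.36%. The call asked for a log2 fold change of 1 or more in size and for a p below 0.05 from edgeR's quasi-likelihood test, after Benjamini-Hochberg adjustment across every gene tested. Over all genes tested the median log2 fold change was -0.03, and over the 6 genes it was -1.15.

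Levels are given in CPM, the share of a library's estimated counts after TMM scaling, which corrects for library composition and not for gene length, so they are compared within a gene only. Top2a stood at 162 and 112 CPM in the CF libraries and at 53.3 and 52.6 CPM in the MF libraries. Both MF libraries lay below both CF libraries and were nearly equal, whereas the CF libraries were 1.45-fold apart. The difference was -1.37 on the log2 scale (SE 0.255, adjusted p = 0.0163), the largest of the 6 genes.

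Cdk1 was at 71.9 and 43.4 CPM in CF and at 22.5 and 25.2 CPM in MF, a log2 fold change of -1.27 (SE 0.286, adjusted p = 0.0277). Its partner Ccnb1 was at 61.8 and 33.6 CPM in CF and at 18.7 and 21.9 CPM in MF, a log2 fold change of -1.24 (SE 0.317, adjusted p = 0.0401). In both genes CF replicate 1 was the highest of all 8 libraries, 1.66-fold above CF replicate 2 for Cdk1 and 1.84-fold for Ccnb1, and no MF library reached either of them. Mki67 was at 158 and 111 CPM in CF and at 73.8 and 55.7 CPM in MF. Its groups did not overlap either, and its log2 fold change was -1.06 (SE 0.266, adjusted p = 0.0382).

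Pcna, the gene of DNA copying, was at 77.7 and 90.4 CPM in CF and at 52.9 and 49.4 CPM in MF. Unlike in the mitotic genes, CF replicate 2 was the higher library. The log2 fold change of -0.72 (SE 0.116, adjusted p = 0.0102) had the smallest adjusted p of the 6 genes and did not reach the fold threshold, so Pcna was not called. Cdkn1a was at 89.8 and 101 CPM in CF and at 196 and 194 CPM in MF. Both MF libraries lay above both CF libraries, a log2 fold change of 1.03 (SE 0.195, adjusted p = 0.0165), with the replicates 1.12-fold apart in CF and 1.01-fold in MF.

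**Figure D1:**
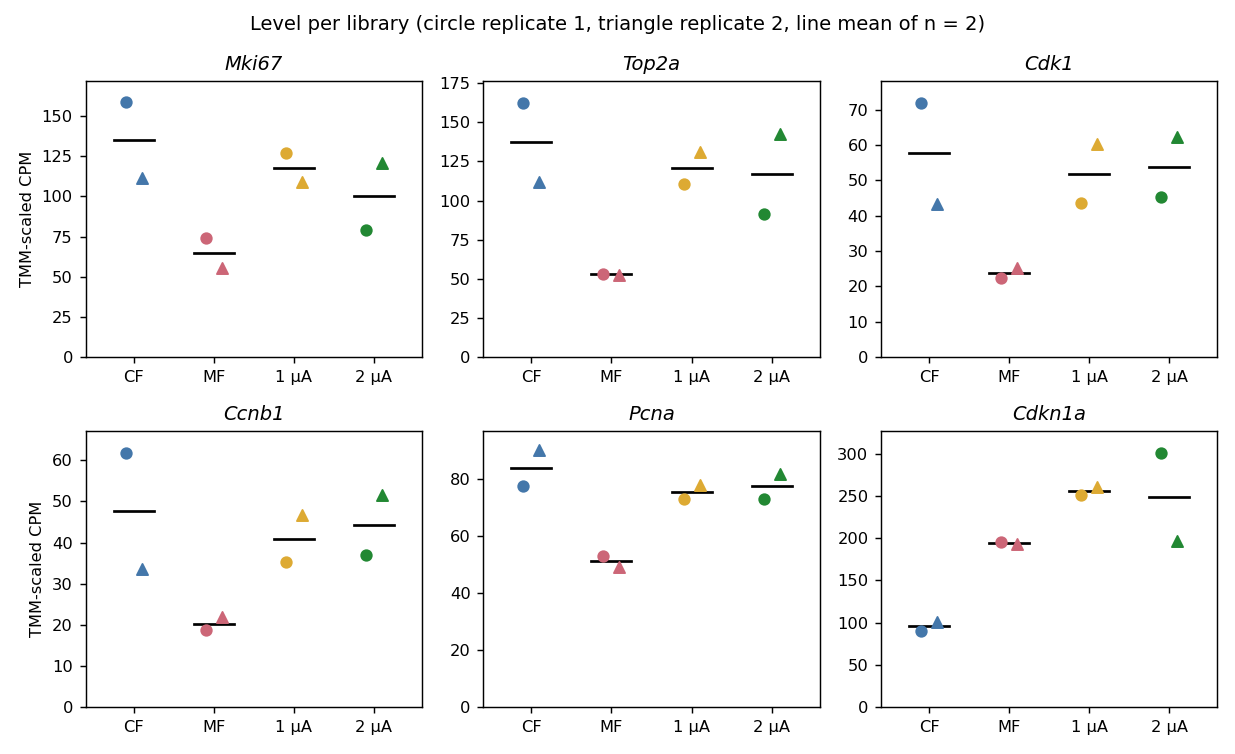
Levels of the 6 genes in TMM-scaled CPM (vertical axes, from 0) in the libraries of CF, MF, 1 µA and 2 µA (horizontal axes), with replicate 1 as circles, replicate 2 as triangles and the mean of 2 libraries as a line. In the 5 genes of cycling cells the MF libraries are the lowest, and in Cdkn1a the CF libraries are the lowest, at 89.8 and 101 CPM.

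Across all 5 genes of cycling cells, both MF libraries were below both CF libraries, and for Cdkn1a both were above. Such a gap between 2 pairs of libraries is common: 34.4% of all genes tested had it downwards and 31.3% upwards. The calls changed with single libraries. In refits with 1 library left out, the lone library of a group was taken to vary like the other groups. Without CF replicate 1, without MF replicate 1 or without MF replicate 2, 0 of the 6 genes were called (the range of their adjusted p without CF replicate 1 was 0.0566 to 0.159 for the called genes), and without 1 µA replicate 1 or 2 there were 3. Calls over all genes tested, in both directions, fell in these refits too, from 1438 to 969 without CF replicate 1, to 336 and 370 without MF replicate 1 and 2, and to 1107 and 1106 without 1 µA replicate 1 and 2. With only the CF and MF libraries in the fit, 2 of the 6 genes and 1137 of all genes were called. The direction of each gene was the same in all these fits.

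Treated cells were compared with untreated MFs, the same 2 MF libraries that entered the comparison with CF. Each of the 5 genes of cycling cells stood higher after current than in MFs, and 1 gene, Top2a, was called higher at each current density, 2.28-fold at 1 µA and 2.21-fold at 2 µA. The background was 1.65% of all genes tested called higher at 1 µA and 1.96% at 2 µA. When 1 µA and 2 µA were averaged and set against MF, 3 of 6 genes were called higher, namely Top2a, Cdk1 and Ccnb1, against 2.87% of all genes tested, and 0 were called lower. The median log2 fold change of the 6 genes in that contrast was 0.91, and that of all genes tested was 0.00.

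Top2a was at 111 and 131 CPM at 1 µA and at 91.2 and 142 CPM at 2 µA, all above the 53.3 and 52.6 CPM of the MF libraries. Its log2 fold change against MF was 1.19 at 1 µA (SE 0.254, adjusted p = 0.0430) and 1.14 at 2 µA (SE 0.254, adjusted p = 0.0445). Over both current densities together it was 1.17 (SE 0.229, adjusted p = 0.0227).

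Cdk1 was at 43.6 and 60.1 CPM at 1 µA and at 45.3 and 62.1 CPM at 2 µA, so that the lowest treated library was well above the higher MF library at 25.2 CPM. The log2 fold changes were 1.12 at 1 µA (SE 0.286, adjusted p = 0.0643) and 1.17 at 2 µA (SE 0.286, adjusted p = 0.0544), both just short of the threshold, and 1.15 with both together (SE 0.258, adjusted p = 0.0323). Ccnb1 followed the same order of libraries, at 35.2 and 46.8 CPM at 1 µA and at 37.0 and 51.5 CPM at 2 µA. Its log2 fold change was 1.02 at 1 µA (SE 0.316, adjusted p = 0.101) and 1.13 at 2 µA (SE 0.316, adjusted p = 0.0755). With both together it was 1.07 (SE 0.284, adjusted p = 0.0498), at the edge of the threshold.

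Mki67 was at 127 and 109 CPM at 1 µA and at 78.9 and 121 CPM at 2 µA. Here 2 µA replicate 1, at 78.9 CPM, came close to MF replicate 1 at 73.8 CPM, and the other 3 treated libraries lay well above both. The log2 fold changes of 0.86 at 1 µA (SE 0.265, adjusted p = 0.0985), 0.63 at 2 µA (SE 0.264, adjusted p = 0.183) and 0.74 with both together (SE 0.235, adjusted p = 0.0791) did not pass the test. Pcna was at 72.9 and 78.2 CPM at 1 µA and at 73.1 and 82.0 CPM at 2 µA, close together and above both MF libraries. Its log2 fold changes of 0.56 (SE 0.116, adjusted p = 0.0386) and 0.60 (SE 0.116, adjusted p = 0.0309), with 0.58 for both together (SE 0.102, adjusted p = 0.0161), had small errors and stayed under the fold threshold.

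Cdkn1a, already raised in MFs, had values above those of MFs after current too, as the other 5 genes did. It was at 251 and 261 CPM at 1 µA and 301 and 197 CPM at 2 µA, against 196 and 194 CPM in MF. The 2 µA libraries were 1.53-fold apart, and 2 µA replicate 2 stood level with the MF libraries. The log2 fold changes against MF were 0.39 at 1 µA (SE 0.193, 95% confidence interval -0.06 to 0.85, adjusted p = 0.248) and 0.36 at 2 µA (SE 0.193, 95% confidence interval -0.10 to 0.81, adjusted p = 0.281), and neither passed the test.

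All 4 treated libraries lay above both MF libraries in 6 of 6 genes, an order found in 26.4% of all genes tested. The called genes of the combined contrast depended on single libraries. Without MF replicate 1, MF replicate 2, 1 µA replicate 2 or 2 µA replicate 2 there were 0 called genes, without 1 µA replicate 1 there was 1, and without 2 µA replicate 1 there were 2, whereas without CF replicate 1 or 2 there were 3. Over all genes tested, the combined contrast called 936 in both directions with all 8 libraries, 17 and 64 without MF replicate 1 and 2, 608 and 310 without 1 µA replicate 1 and 2, and 777 and 884 without 2 µA replicate 1 and 2. Against MF at 1 µA and at 2 µA, leaving out CF replicate 1 or 2 raised the count from 1 to 3 at each current density, and it was 0 without either MF or either 1 µA library, and at 2 µA also without 2 µA replicate 2. Calls over all genes moved as well. At 1 µA they went from 543 to 886 and 883 without CF replicate 1 and 2, to 4 and 6 without MF replicate 1 and 2, and to 47 and 9 without 1 µA replicate 1 and 2. At 2 µA they went from 640 to 982 and 985 without a CF library, to 9 and 11 without an MF library, to 291 and 285 without a 1 µA library, and to 381 without 2 µA replicate 2.

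**Figure D2:**
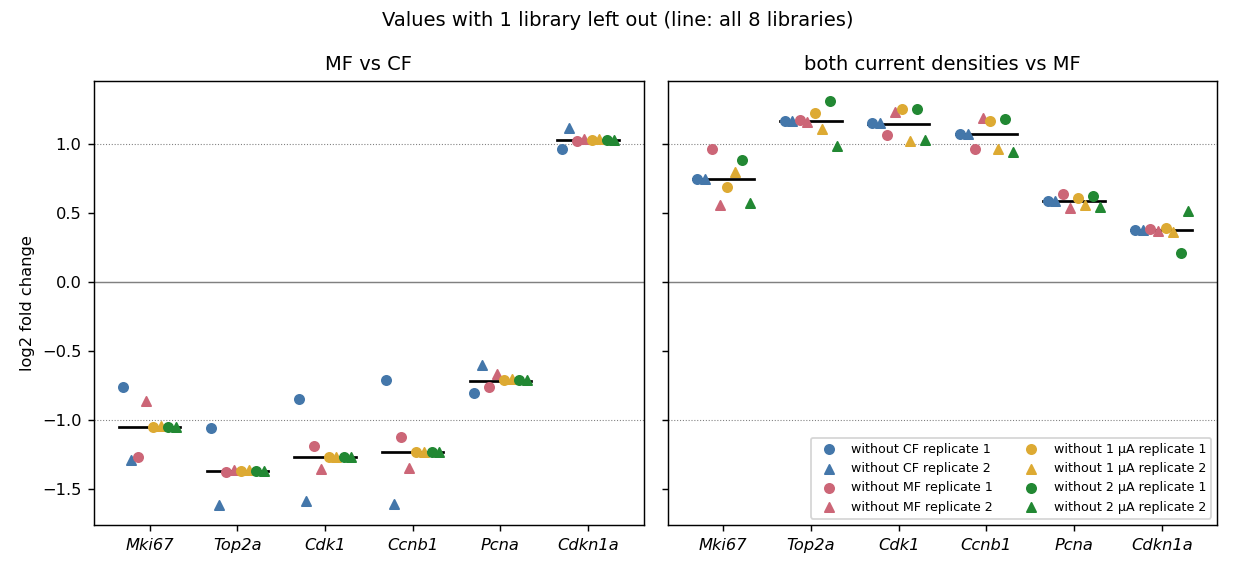
Log2 fold changes (vertical axis) of the 6 genes (horizontal axis) in MF against CF (left) and in both current densities against MF (right), each refitted without 1 library, with the value from all 8 libraries as a line and dotted lines at a log2 fold change of 1 in size. No gene changes sign in these contrasts, and leaving out CF replicate 1 moves Ccnb1 most on the left, from -1.24 to -0.72.

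Treated cells were also set against CFs, to see whether they had come to the level of the starting cells. Of the 5 genes of cycling cells, 0 were called by edgeR's quasi-likelihood test at either current density and 0 were called by DESeq2. An unadjusted p below 0.05 in edgeR's test was found for 0 of the 5, and such p were not counted over all genes. Over all genes tested, in both directions, edgeR called 6.51% at 1 µA and 5.02% at 2 µA, so 0 of 5 is near that share. DESeq2 called 1241 and 1072 of 17184 genes. The log2 fold changes of the 5 genes ranged from -0.22 to -0.15 at 1 µA and from -0.43 to -0.10 at 2 µA, all on the lower side, with adjusted p from 0.372 to 0.868. Such values do not show that the levels were equal. For Cdk1 the 95% confidence interval ran from -0.82 to 0.51 at 1 µA and from -0.77 to 0.56 at 2 µA, for Ccnb1 from -0.96 to 0.52 and from -0.85 to 0.63, and for Top2a from -0.78 to 0.41 and from -0.83 to 0.36. Mki67 had the widest gap, with an interval at 2 µA from -1.06 to 0.19, and Pcna the narrowest intervals, from -0.43 to 0.12 and from -0.39 to 0.16. CF replicate 2 lay within the range of the treated libraries for Mki67 and Top2a and just below it for Cdk1, at 43.4 CPM against a lowest treated value of 43.6 CPM, and for Ccnb1, at 33.6 CPM against 35.2 CPM. Without CF replicate 1 the log2 fold changes of Top2a, Cdk1 and Ccnb1 turned positive at both current densities.

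Cdkn1a was the only 1 of the 6 genes called against CF, at 2.68-fold higher at 1 µA (log2 fold change 1.42, SE 0.197, adjusted p = 0.00986) and 2.61-fold at 2 µA (log2 fold change 1.38, SE 0.196, adjusted p = 0.0130). All 4 treated libraries, from 197 to 301 CPM, were above both CF libraries, an order that was not counted over all genes tested. For the calls, the background was 3.82% of all genes tested called higher at 1 µA and 2.89% at 2 µA. For both current densities together the log2 fold change was 1.40 (SE 0.179, adjusted p = 0.00536), against 4.22% of all genes tested. The call at 1 µA was lost without 1 µA replicate 1 (adjusted p = 0.0673) and without 1 µA replicate 2 (adjusted p = 0.0603), and the call at 2 µA was lost with only the 2 µA and CF libraries in the fit (adjusted p = 0.118). Over all genes tested, the calls at 1 µA went from 901 to 138 and 233 in the first 2 of these refits, and those at 2 µA from 695 to 2 in the last.

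**Figure D3:**
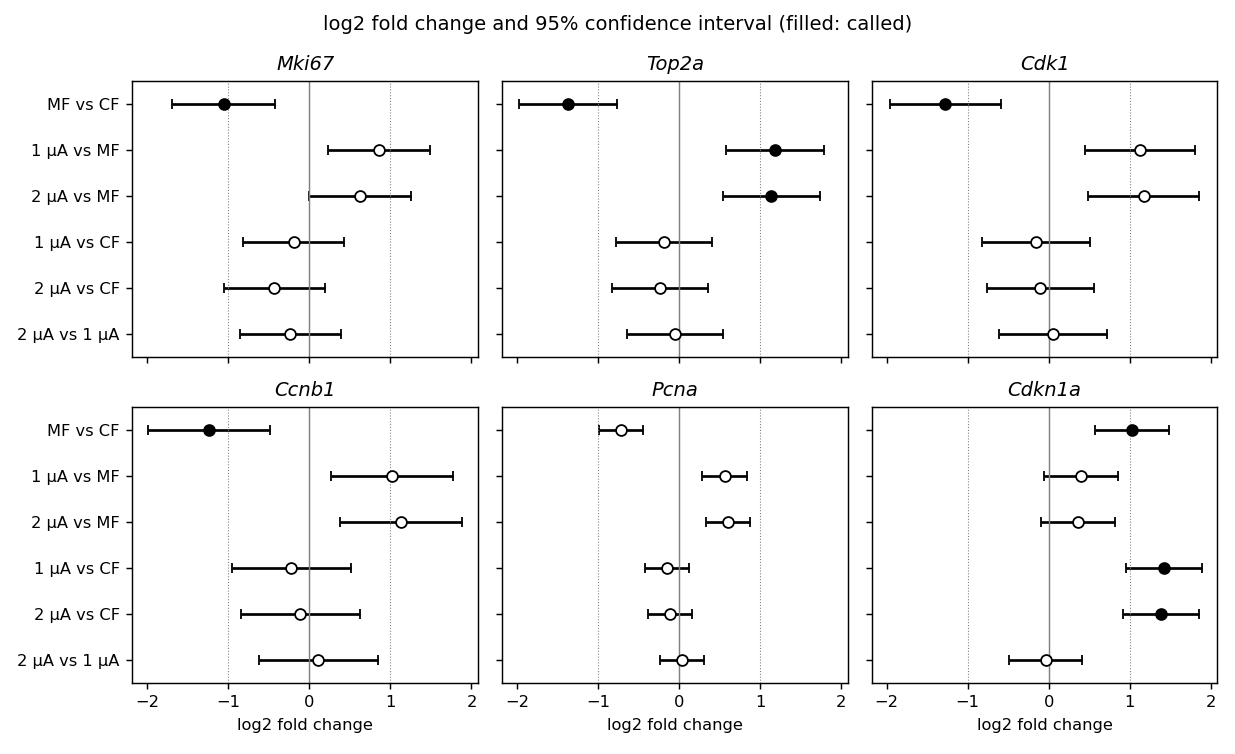
Log2 fold changes of the 6 genes (horizontal axes) in 6 comparisons of groups (vertical axes), with 95% confidence intervals as bars and filled points where the gene was called. Top2a is called at both current densities against MF, and Cdkn1a in each comparison with CF.

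The 2 current densities were compared with each other. By edgeR's quasi-likelihood test 0 of the 6 genes were called, against 0.00722% of all genes tested (1 gene). DESeq2 called 0 of the 6, and 7 of 17184 genes. An unadjusted p below 0.05 in edgeR's test was found for 0 of the 6, and such p were not counted over all genes. The log2 fold changes of 2 µA against 1 µA were -0.24 for Mki67 (95% confidence interval -0.86 to 0.39), -0.05 for Top2a (-0.64 to 0.55), 0.05 for Cdk1 (-0.62 to 0.72), 0.11 for Ccnb1 (-0.63 to 0.85), 0.04 for Pcna (-0.23 to 0.31) and -0.04 for Cdkn1a (-0.49 to 0.42). The interval was narrowest for Pcna, and those of the 4 mitotic genes reached from -0.86 to 0.85 on the log2 scale.

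Ordered by their mean levels, the groups ran CF, 1 µA, 2 µA and MF for Mki67, from 135 ± 33.4 CPM in CF to 64.8 ± 12.8 CPM in MF (SD, n = 2), and likewise for Top2a, at 137 ± 35.8, 121 ± 14.2, 117 ± 36.3 and 53 ± 0.48 CPM (SD, n = 2). In Cdk1, Ccnb1 and Pcna the treated groups changed places, with means of 51.9 ± 11.7 and 53.7 ± 11.9 CPM (SD, n = 2) at 1 µA and 2 µA for Cdk1. The range of mean ± SD from 2 libraries describes the spread and is not a test. Overlap of such ranges was not counted over all genes tested, so it has no share to be read against. By these ranges, neighbours among CF, 1 µA and 2 µA overlapped in each of these 5 genes. For Mki67, 2 µA and MF overlapped as well. For Cdkn1a the order was 1 µA, 2 µA, MF and CF, at 256 ± 6.58, 249 ± 73.8, 195 ± 1.5 and 95.4 ± 7.92 CPM (SD, n = 2). Of the neighbours only MF and CF did not overlap. The ranges of 1 µA and MF, which are not neighbours, did not overlap either, though that difference did not pass edgeR's test.

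The spread between replicates was not shared evenly. In CF, the mitotic genes were 1.42-fold to 1.84-fold higher in replicate 1 than in replicate 2, and the gap of Ccnb1, 0.88 on the log2 scale, was larger than that of 88.2% of all genes tested, whose median gap in CF was 0.26. In 2 µA, replicate 2 was higher by 1.53-fold for Mki67, 1.56-fold for Top2a, 1.37-fold for Cdk1 and 1.39-fold for Ccnb1, while Cdkn1a was 1.53-fold lower there. In 1 µA, replicate 2 was higher for Top2a (1.18-fold), Cdk1 (1.38-fold) and Ccnb1 (1.33-fold). It was slightly higher for Pcna (1.07-fold) and Cdkn1a (1.04-fold), and lower for Mki67 (1.16-fold). The biological coefficient of variation was 19.7% for Mki67, 19.0% for Top2a, 20.7% for Cdk1, 22.6% for Ccnb1, 11.1% for Pcna and 15.7% for Cdkn1a, against 18.4% for all genes in common. Counting error alone was 1.80% to 4.47% of the lowest count of each gene.

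Across the 8 libraries, on the authors' variance stabilised values, Cdk1 and Ccnb1 gave the closest pair of the 6 genes, with Pearson's r of 0.996 and the same rank order in all libraries. Among the 13848 other genes tested, Cdk1 was the 4th most alike to Ccnb1, and Ccnb1 the 10th most alike to Cdk1. Top2a correlated with Cdk1 at r = 0.979 and with Mki67 at r = 0.919, and Pcna was nearest to Top2a at r = 0.901. Cdkn1a had r from -0.371 to -0.176 with the other 5. The gene most like Cdk1 was ENSRNOG00000020908 (r = 0.998, log2 fold change -1.44 in MF against CF and 1.25 in the treated groups against MF), and the one most like Cdkn1a was ENSRNOG00000028185 (r = 0.998, with 0.50 and 0.19). These correlations describe 8 libraries that fall into 4 groups and share their differences in depth and composition. High values were not confined to the genes named here. Of all genes, 0.758% (105 genes) had r above 0.9 with Mki67, the fewest among the 6. With Cdk1 it was 4.41% (611 genes), the most.

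A second deposited table, of whole-number counts, held 4 of the 6 genes, and Top2a and Ccnb1 were not analysed there. Mki67 stood in it at 188 and 134 CPM in CF, 85.9 and 67.1 CPM in MF, 148 and 123 CPM at 1 µA and 94.4 and 133 CPM at 2 µA. These CPM were higher than in the estimated counts in all 8 libraries, with the groups in the same order. The Mki67 counts themselves were lower in it, at 4958 and 2930 in CF against 5972 and 3394. Library totals, over which CPM is taken, were smaller in it as well, at 26687203 and 22931603 in CF against 37903701 and 31880157. Mki67, Cdk1 and Cdkn1a were called in MF against CF in that table too, with log2 fold changes of -1.07, -1.30 and 1.09. Levels of Cdkn1a were lower there in all 8 libraries, at 78.2 and 93.9 CPM in CF, 185 and 181 CPM in MF, 221 and 233 CPM at 1 µA and 259 and 177 CPM at 2 µA. Its 2 µA replicate 2 then fell just below both MF libraries, so that the groups overlapped. RefSeq lists pseudogenes named after Mki67 (1), Cdk1 (1) and Pcna (3), and reads of these genes could be divided with such copies, which leaves their absolute levels uncertain.

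**Figure D4:**
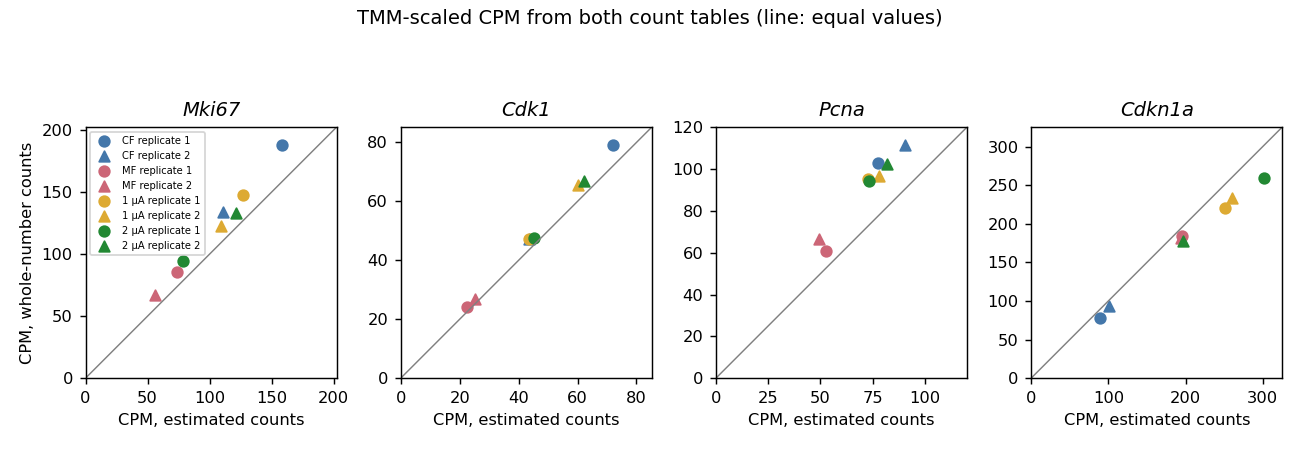
TMM-scaled CPM of the 4 genes held by both tables, from estimated counts (horizontal axes) and from whole-number counts (vertical axes), 1 point per library with colours for groups, circles for replicate 1 and triangles for replicate 2, and a line of equal values. The points of Mki67, Cdk1 and Pcna lie above the line, and those of Cdkn1a below it.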

How the data were processed

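RNA of 8 libraries was sequenced with paired reads. Estimated counts for each gene were deposited by the authors, who obtained them from salmon quantification of the rn6 transcriptome. From these the authors made deposited normalized values (a signal, divided by DESeq2 factors) and log2 values that were variance stabilised. A matrix of whole-number counts was deposited as well, with a pipeline that is not given in the sources used here. The submitters' processing notes name STAR, DESeq2 1.28.1 and rn6.

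Estimated counts were rounded and tested with edgeR 4.0.16 (limma 3.58.1, R 4.3.3), using filterByExpr, TMM scaling, robust dispersions and quasi-likelihood F tests. All 8 libraries entered 1 fit with a coefficient for each of the 4 groups, which left 4 residual degrees of freedom. Calls required a log2 fold change of 1 or more in size and a p below 0.05 after Benjamini-Hochberg adjustment over 13849 genes. To obtain the standard error, the log2 fold change was divided by the root of its F statistic. The script was tested on simulated data. Replicates differed by more than sampling noise in each group, so none was counted as a copy.

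The members and lists were chosen with earlier results of these data known. Named were the 6 genes and, by ID, the genes most like Cdk1 and Cdkn1a by Pearson's r over the variance stabilised values. The planned lists of pathway genes and cell type markers were not run, since neither the tables nor the RefSeq gene table (GRCr8, 0 Ensembl IDs) pair symbols with the IDs. Promoters came from RefSeq (GRCr8), whereas counts were made on rn6. Alternatives were DESeq2 1.42.0, RLE and upper quartile scaling, offsets from the deposited normalized values, no count filter, a minimum of 10 counts in all libraries, the matrix, fits of only the compared groups, a replicate block, other thresholds, log2 CPM (prior count 2) for the correlations, and leaving out each library. Figures used Python 3.11.15 and matplotlib 3.10.9.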

Additional observations from a re-analysis of the deposited data

How the results depend on the processing

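In MF against CF, and in both current densities together against MF, each of the 6 genes kept its direction under every alternative run. The number of genes called there changed with the fit. With an adjusted p below 0.01, it was 0 in MF against CF and at 2 µA against CF. It was also 0 in each treated group and in both together against MF. Calls over all genes were not counted at that threshold, so these counts of 0 cannot be set against a share. When a fit held only the libraries compared, the number of the 6 genes called was 2 in MF against CF. It was 3 against MF for each current density, and 0 at 2 µA against CF. Over all genes the same fits called 1137 in MF against CF, 1164 for 1 µA and 839 for 2 µA relative to MF, and 2 at 2 µA against CF, where the fit of all 8 libraries called 1438, 543, 640 and 695. DESeq2 called 3 genes (Top2a, Cdk1 and Ccnb1) at each current density against MF, where it called 940 and 1036 of all genes. Without the fold threshold, 2 genes passed at each, beside 968 of all genes at 1 µA and 1097 at 2 µA. At 2 µA, 2 were called with upper quartile scaling and 2 without the low count filter, beside 690 and 729 of all genes. Upper quartile scaling also lost Cdkn1a in MF against CF, which left 4 genes called, beside 1476 of all genes. RLE scaling and the deposited offsets each lost Ccnb1 in both together against MF. That left 2 genes called, beside 934 and 915 of all genes. In the matrix of whole-number counts, which holds 4 of the genes, 3 were called in MF against CF, beside 1317 of all genes. The same number of those 4 was called in the estimated counts. With each library left out in turn, the count ranged from 0 to 5 in MF against CF, from 0 to 3 at 1 µA, at 2 µA and in both together against MF, and from 0 to 1 at 1 µA against CF. Fits with a library left out have fewer samples, and the cause of the other changes was not tested.

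Whether the replicate numbers paired the samples cannot be told from 2 libraries per group. Deviations of same-numbered libraries from their group means correlated between -0.172 and 0.242 over the 6 pairs of groups. The highest value was between 1 µA and 2 µA. With the replicate number as a block, 3 genes were called in MF against CF, 0 against MF for each current density, and 1 against MF for both together. Over all genes the block gave 1279 calls in MF against CF, 379 for 1 µA and 485 for 2 µA relative to MF, and 821 in both together, of 936 without it.

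The directions that reversed with 1 library left out belonged to differences that had not passed the test. Against CF at 1 µA, the log2 fold change ranged from -0.43 to 0.10 for Mki67, -0.43 to 0.13 for Top2a, -0.47 to 0.27 for Cdk1 and -0.59 to 0.30 for Ccnb1. At 2 µA it ranged from -0.59 to 0.084 for Top2a, -0.42 to 0.33 for Cdk1, -0.48 to 0.42 for Ccnb1 and -0.20 to 0.0017 for Pcna. For both together it ranged from -0.45 to 0.11 for Top2a, -0.44 to 0.30 for Cdk1 and -0.54 to 0.36 for Ccnb1. Between 2 µA and 1 µA it ranged from -0.58 to 0.040 for Mki67, -0.41 to 0.24 for Top2a, -0.20 to 0.31 for Cdk1, -0.15 to 0.34 for Ccnb1, -0.047 to 0.12 for Pcna and -0.38 to 0.24 for Cdkn1a. At the depth of these libraries, counting error alone was at most 4.47% of the lowest count of any of the 6 genes.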
